A study of Drosophila melanogaster with 14 samples.

Results

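BG3 cells in which RNA interference was aimed at Polyhomeotic (Ph) were compared directly with BG3 cells in which it was aimed at Polycomb (Pc). Both proteins belong to Polycomb Repressive Complex 1 (PRC1). The comparison used 5 of the 14 libraries of total RNA, namely the 3 labelled Ph and the 2 labelled Pc, and it covered all 7624 genes of the table. The other libraries were 6 from mock-treated cells (Mock) and 3 from cells treated against the subunit Sex combs extra (Sce). BG3 cells (ML-DmBG3-c2) are a Drosophila line from the larval central nervous system. All groups were grown in the same insulin-containing medium and, per the labels' protocols, the treated cells received double-stranded RNA in the medium, usually as an equal mixture of a pair of fragments per target. The labels give no time after treatment, and they do not say that replicates came from separate cultures.

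Each value is the authors' mean signal of a group, so no spread between libraries stands beside it and no difference below was tested. A ratio is the Ph mean divided by the Pc mean, or the reverse, and does not involve Mock. A gene is called at least 2-fold higher when log2 of the ratio, with a pseudocount of 1 added to both means, is 1 or more. The precision of each mean is unknown, because the depth of the libraries is not given and 1 of the groups rests on only 2 libraries.

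Polycomb group proteins keep developmental regulators silent outside the cells in which they act. Pc holds PRC1 on chromatin by binding trimethylated histone H3, and Ph multimerises through its SAM domain and links PRC1 complexes to one another. The best known targets are the Hox genes, which set segment identity, and many other genes for transcription factors. PRC1 also occupies genes that are active.

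The RNA of the targeted genes was looked at first. For ph-p, 1 of the near-identical pair of genes that encode Ph, the mean was 191903 in the group labelled Ph and 28679 in the group labelled Pc. For the other, ph-d, it was 194873 and 30519. For Pc it was 7868 in the group labelled Ph and 136729 in the group labelled Pc. Each targeted gene was thus higher, not lower, in the group labelled for it, by 6.69-fold (ph-p), 6.39-fold (ph-d) and 17.4-fold (Pc). The labels' protocols state that the fragments lower their targets when used singly. Whether reads of the added double-stranded RNA entered these values was not tested, and the RNA signal does not show depletion in either group. The groups are therefore called by their labels throughout, and every direction below is that of the labelled groups.

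Among the other PRC1 genes the labelled groups lay close together. Psc, whose protein is the partner of Sce in the complex, had a mean of 100419 with Ph and 77736 with Pc, against 30980 in Mock. Its relative Su(z)2 had 231381 and 286541, against 44132 in Mock. Sce itself had 36536 with Ph and 22122 with Pc, and the means of Scm, Kdm2 and l(3)73Ah differed by less than 1.5-fold. In the whole table, 5.95% of genes were at least 2-fold higher with Ph and 5.38% with Pc. None of 18 listed genes of PRC2, PhoRC and other Polycomb group proteins and none of 27 trithorax group genes, which oppose them, was 2-fold apart. Their median log2 ratios of Ph to Pc were -0.02 and -0.07, beside 0.02 over all 7624 genes.

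Over all genes, 454 (5.95%) were at least 2-fold higher in the group labelled Ph and 410 (5.38%) in the group labelled Pc. The lower and upper quartiles of the log2 ratio were -0.28 and 0.32. Weakly detected genes held most of the large ratios. In the quartile of genes with the lowest mean of both groups, 15.9% were at least 2-fold higher with Ph and 11.2% with Pc, whereas in the highest quartile these shares were 2.57% and 2.89%. The median level was 21108, and of the 3812 genes that reached it 89 were 2-fold higher with Ph and 111 with Pc. For scale, the group labelled Ph was 2-fold above that labelled Sce at 6.49% of genes and 2-fold below it at 4.35%. The group labelled Sce was 2-fold above that labelled Pc at 2.69% and below it at 4.7%.

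**Figure D1:**
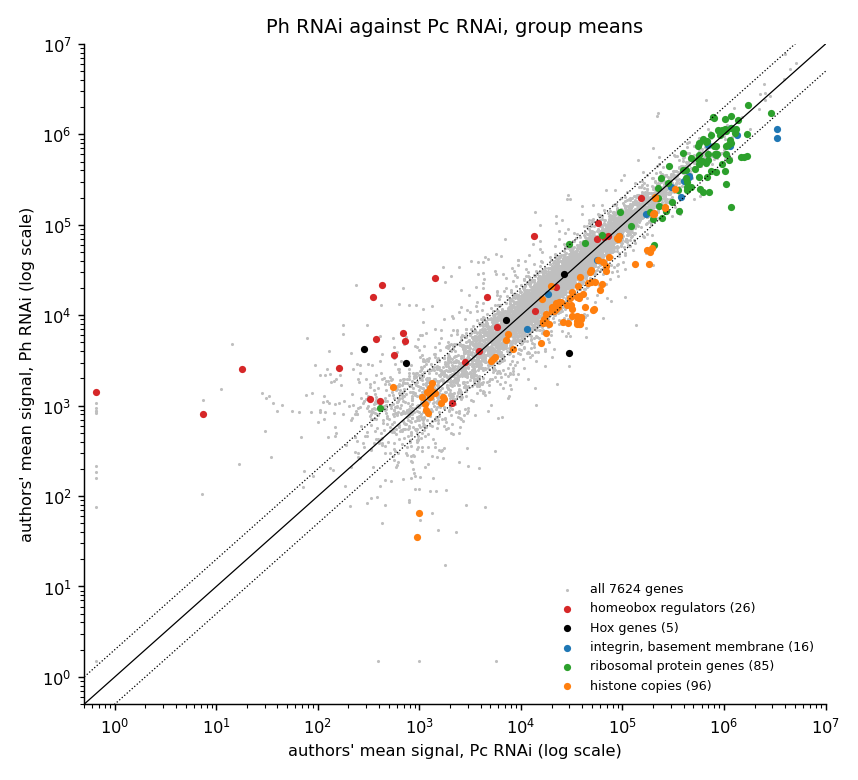
Authors' mean signal per gene in the group labelled Pc (horizontal, log scale) and in the group labelled Ph (vertical, log scale), with 5 gene lists in colour; the solid line marks equal means and the dotted lines a 2-fold difference. Homeobox regulators lie above the diagonal at low Pc signal, while 89 of 96 histone copies and 14 of 16 integrin and basement membrane genes lie below it.

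Where Mock lay between or beside the groups differed with the direction. Of the 454 genes higher with Ph, 126 were at least 2-fold above Mock in both groups and 104 in the group labelled Ph alone, with Pc within 2-fold of Mock. In another 113 the group labelled Pc was at least 2-fold below Mock while Ph was less than 2-fold above it. Of the 410 genes higher with Pc, 202 were at least 2-fold below Mock with Ph while Pc was less than 2-fold above Mock. Only 59 of them were 2-fold above Mock with Pc while Ph stayed within 2-fold, and 28 were 2-fold above Mock in both groups. These counts describe the means and take no account of error.

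The Hox genes differed from one another in which labelled group was higher. Scr, the Hox gene of the labial and first thoracic segments, had a mean of 3796 with Ph and 29800.2 with Pc, 7.85-fold higher with Pc. Ubx, which specifies the posterior thorax, had 4261 with Ph and 283.8 with Pc, a log2 ratio of 3.90. The abdominal gene abd-A had 2937 with Ph and 743.9 with Pc, 3.95-fold higher with Ph.

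Antp, a gene of thoracic identity, stood at 8938 with Ph and 7149 with Pc. The most posterior gene, Abd-B, stood at 28606 and 26282, so for this pair the labelled groups were nearly level. In Mock the 5 genes were listed between 1.40 and 13.7, and in the group labelled Sce between 57.4 (Ubx) and 9393 (Abd-B). The other 3 Hox genes are not among the 7624. Within the bithorax complex, Ubx and abd-A were thus higher with Ph and Abd-B was level. Within the Antennapedia complex Scr was higher with Pc and Antp was level. Every listed gene has a mean of at least 798.3 in some group, and Ubx and abd-A reached it only with Ph. They are therefore listed only because Ph is high. Of the 3 Hox genes with at least 798.3 in both labelled groups, none was 2-fold higher with Ph and 1 was with Pc. Their median log2 ratio was 0.12. Of all genes, 7138 had at least 798.3 in both labelled groups. Of these 7138, 247 were 2-fold higher with Ph and 300 with Pc, with a median of 0.02. Those counts stand beside each such subset below. The q-values against Mock in the authors' deposited table were 0.005 (Ph) and 0.002 (Pc) for Scr. For abd-A the authors' deposited table gives 0.087 (Ph) and 0.001 (Pc).

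Homeobox and related regulators of head, eye and nerve cord were mostly higher in the group labelled Ph. Of 26 listed genes 15 were at least 2-fold higher with Ph, against 5.95% of all genes, and none of the 26 was 2-fold higher with Pc. Their median log2 ratio was 1.84. Optix, a homeobox gene of eye development, had a mean of 21557 with Ph, 429.8 with Pc and 32.4 in Mock. The head gap gene oc, also called orthodenticle, had 25732 with Ph, 1436 with Pc and 9.53 in Mock. The zinc finger homeobox gene zfh2 had 74292 with Ph, 13350.2 with Pc and 3542 in Mock, a ratio of 5.56.

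Several of these regulators had signal with Ph but almost none with Pc. The goosecoid gene Gsc stood at 1424 with Ph and at the lowest value of the column, 0.65, with Pc, so no fold is given. The NK-2 class gene scro stood at 2550.3 with Ph and 17.7 with Pc. Named after their values were seen, tup, an islet family gene, had 15926 with Ph and 350.3 with Pc. The distal limb gene Dll, also named so, had 2594 and 162.1, and the ladybird gene lbe had 5421 and 371.4. Dr (muscle segment homeobox, 4019 and 3824) and Poxm (a paired-box gene, 20443 and 22081) were nearly level between the labelled groups while both stood far above Mock, at 87.5 and 536.5. These were also chosen after their values were seen. The gene with the largest excess with Pc was the eye development gene so (sine oculis), at 1066 with Ph and 2098 with Pc.

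A gene low in every group is absent from the table, since every listed gene has a mean of at least 798.3 in some group. A regulator that is silent with Pc is thus listed only if another group is high, and this bears on the median. Of the 26 genes, 14 had at least 798.3 in both labelled groups. Among these the median log2 ratio was 0.24, with 3 genes 2-fold higher with Ph and none with Pc. Of all 7138 genes past the same limit, 247 were 2-fold higher with Ph and 300 with Pc.

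**Figure D2:**
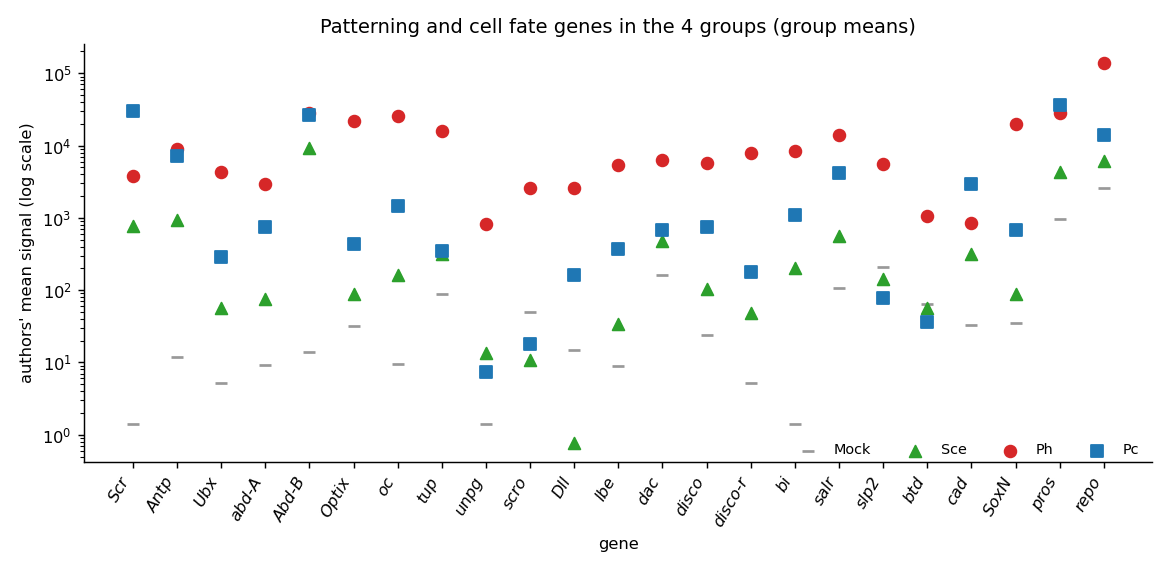
Authors' mean signal (log scale) of 23 patterning and cell fate genes in the groups labelled Ph, Pc and Sce and in Mock, chosen after their values were seen. Ph is above Pc for most, while Scr, cad and pros have the higher mean with Pc, and Antp and Abd-B are nearly level.

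Zinc finger and T-box regulators followed in part. Of 17 listed genes 7 were 2-fold higher with Ph, against 5.95% of all genes, and 1 with Pc, against 5.38%. The median log2 ratio was 0.54. Among the 13 with at least 798.3 in both labelled groups, 4 were 2-fold higher with Ph and none with Pc, with a median of 0.44. The T-box gene bi (optomotor-blind) had a mean of 8427 with Ph and 1094 with Pc. The disconnected-related gene disco-r had 7833 and 178.1, and only its Ph mean reached 798.3. Of the 17, the 1 gene 2-fold higher with Pc was the teashirt paralog tio, at 463.6 with Ph and 1131 with Pc. Its paralog tsh was nearly level, with 20674 and 25045, against 1660.0 in Mock. Genes of segmentation divided as well: of 10 listed, 5 were 2-fold higher with Ph and 1 with Pc, beside the same shares of all genes. The forkhead gene slp2 had 5573 with Ph and 78.1 with Pc, and btd, a head gap gene, had 1064 and 36.4. The caudal gene cad, which patterns the posterior, had 837.7 with Ph and 2971 with Pc. The median log2 ratio of these 10 was 1.53, but -0.03 among the 6 with at least 798.3 in both labelled groups. Of these 6, 2 were 2-fold higher with Ph and 1 with Pc.

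Genes of the nervous system did not shift as a body. In bulk RNA, fewer cells of a type and less RNA per cell cannot be told apart. The glial master regulator repo had the largest ratio of any gene at or above the median level that the naming rule took, 10.0, with a mean of 138658 with Ph, 13815 with Pc and 2567 in Mock. The glial secreted protein gene axo (61166 with Ph, 13123 with Pc) and the septate junction gene vari (104224 and 22211) were also higher with Ph. Against these, Gli, the gene for gliotactin of glial septate junctions, had 9381 with Ph and 26802 with Pc. The glutamine synthetase gene Gs2 had 588.3 and 1754, and ebony (e), which conjugates amines in glia, had 659.7 and 1818. Of 15 listed glial genes 4 were 2-fold higher with Ph, against 5.95% of all genes, and 4 with Pc, against 5.38%. The median log2 ratio was -0.11. Among the 13 with at least 798.3 in both labelled groups, 4 were 2-fold higher with Ph and 2 with Pc, with a median of -0.04.

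Of the 5 listed neural precursor genes, SoxN (19970.2 with Ph, 687.7 with Pc) and the asymmetric division gene insc (35073 and 15465) were 2-fold higher with Ph. None was 2-fold higher with Pc, where the shares of all genes were 5.95% (Ph) and 5.38% (Pc). The median log2 ratio of the 5 was 0.11. Only the Ph mean of SoxN reached 798.3, so SoxN is listed only because Ph is high. Among the 4 with at least 798.3 in both labelled groups, 1 was 2-fold higher with Ph and none with Pc. Their median was 0.06. The precursor and glial regulator pros was nearly level, at 28436 and 35847, although its Mock mean was 970.1. The neuronal marker elav was listed at 21194 with Ph, 19887 with Pc and 17293 in Mock. GABA-B-R3, a metabotropic GABA receptor gene, was 5.34-fold higher with Pc, at 14282 with Ph and 76202 with Pc. Its Mock mean of 87900 lay near the latter. The acetylcholinesterase gene Ace had 1391 with Ph and 87.4 with Pc. Of 11 listed neuronal genes these were the only pair past 2-fold, 1 in each direction, beside 5.95% (Ph) and 5.38% (Pc) of all genes. The median log2 ratio was 0.09. Only the Ph mean of Ace reached 798.3, so Ace is listed only because Ph is high. Among the 10 neuronal genes with at least 798.3 in both labelled groups, none was 2-fold higher with Ph and 1 with Pc. Their median was -0.11. Summed over the markers of each type, the mean signal of 7 glial genes was 603024 with Ph and 408414 with Pc. To these sums repo gave 138658 and 13815, while Gs2 stood the other way. The sum of 4 precursor genes was 86082 with Ph and 54405 with Pc, and that of 3 neuronal genes 45473 and 48224. The sum of 5 hemocyte genes was 188161 with Ph and 216286 with Pc, that of 3 muscle genes 62484 and 44857, and 0 of 4 fat body markers were listed. The part of these in the other results was not tested.

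Receptor signalling genes contained large ratios in both directions. Of 30 listed genes of the EGF, FGF, Sevenless and Alk receptor pathways, 6 were 2-fold higher with Ph and 2 with Pc. The shares of all genes were 5.95% and 5.38%. The median log2 ratio of the 30 was 0.29. Among the 29 with at least 798.3 in both labelled groups, 5 were 2-fold higher with Ph and 2 with Pc. The secreted EGF receptor inhibitor gene aos had a mean of 100030.2 with Ph and 15537 with Pc, where Mock had 11461, a ratio of 6.44. The photoreceptor kinase gene sev had 123951 with Ph and 22167 with Pc, a ratio of 5.59. For rho, which encodes an intramembrane protease that processes ligands of that receptor, the means were 351394 and 104360.2. On the other side the receptor kinase gene Alk had 16008 with Ph and 106358 with Pc, 6.64-fold higher with Pc, with 30810 in Mock. Its q-values against Mock in the authors' deposited table were 0.453 (Ph) and 0.203 (Pc), so neither group was called against Mock.

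Of 3 listed Wnt ligand genes, wg and Wnt4 were 2-fold higher with Ph and Wnt5 was nearly level, at 23385 and 21209.6. The gene for Wingless, wg, had 5594 with Ph and 554.9 with Pc, and Wnt4, which lies near it on arm 2L, had 41240.1 and 9296. The Wingless feedback gene nkd had 113663 with Ph and 50188 with Pc, while the receptor gene fz2 had 77320.0 and 193493. In all, 3 of 23 Wnt pathway genes were 2-fold higher with Ph, against 5.95% of all genes, and 1 with Pc, against 5.38%. In the Hedgehog pathway, ptc, the gene for the receptor that is also a target of the pathway, was 3.00-fold higher with Pc. Its mean was 25121 with Ph, 75457 with Pc and 24935 in Mock, with q-values against Mock of 0.586 (Ph) and 0.005 (Pc) in the authors' deposited table. The pathway's transcription factor gene ci had 165873 with Ph and 80635 with Pc. These were the 1 gene in each direction past 2-fold among 15 listed, beside the same shares of all genes. The Dpp ligand gene dpp had 12508 with Ph and 1320 with Pc. Among 19 listed genes of its pathway and of activin signalling 2 were 2-fold higher with Ph and 1 with Pc. Here too the shares of all genes were 5.95% and 5.38%, and the median log2 ratio of the 19 was 0.16. Whether the counts of these pathways differ from the shares was not tested.

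In the Notch pathway 6 of 25 listed genes were 2-fold higher with Ph, against 5.95% of all genes, and none with Pc, with a median log2 ratio of 0.25. Among the 22 with at least 798.3 in both labelled groups 3 were 2-fold higher with Ph and the median was 0.22. The members of the Enhancer of split complex m6 (2234 with Ph, 133.0 with Pc), malpha (3694 and 426.1) and HLHm3 (29871 and 11725) were among the 6. The pathway gene dx (58615 and 39859) differed less. Of 11 listed JAK-STAT genes 2 were 2-fold higher with Ph, against 5.95% of all genes, and none with Pc, and 10 had a ratio above 1. The zinc finger gene chinmo, which maintains immature and male stem cell states, had 27161 with Ph and 2031 with Pc, and the cytokine gene upd2 had 8956 and 4256. Of 18 ecdysone response genes ImpE1 alone was 2-fold higher with Ph, against 5.95% of all genes, at 4831 with Ph and 14.3 with Pc. Only its Ph mean reached 798.3. Among the 17 with at least 798.3 in both labelled groups none was 2-fold apart. The receptor gene EcR was at 85619 and 68981.

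**Figure D3:**
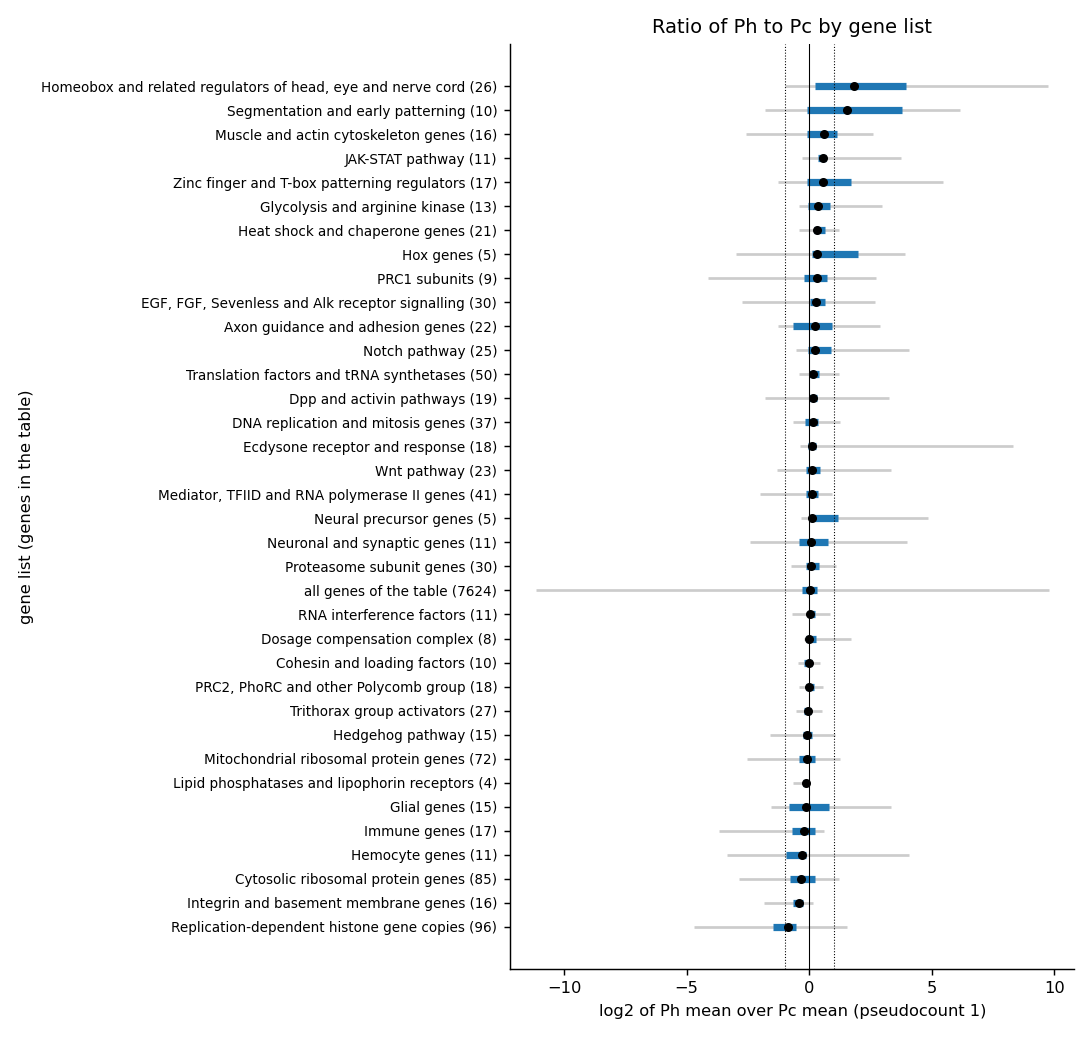
Log2 of the ratio of Ph to Pc by gene list, with the number of listed genes in parentheses; points are medians, thick bars run from the lower to the upper quartile, thin lines the whole range, and dotted lines a 2-fold difference. The median is 1.84 for homeobox regulators, or 0.24 for those with at least 798.3 in both labelled groups, and -0.87 for histone gene copies.

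Both genes for collagen IV chains, the scaffold of basement membranes, were higher in the group labelled Pc. Of 16 listed integrin and basement membrane genes 14 had the higher mean with Pc, as had 3648 of all 7624 genes. Of the 16, 2 were 2-fold higher with Pc, against 5.38% of all genes, and the median log2 ratio was -0.41. The pair past 2-fold were the collagen IV genes. For vkg the mean was 911413 with Ph, 3324058 with Pc and 1301395 in Mock, 3.65-fold higher with Pc. For Cg25C it was 1155456 with Ph, 3347330.4 with Pc and 1551287 in Mock, 2.90-fold higher with Pc. The q-values of vkg against Mock in the authors' deposited table were 0.33 (Ph) and 0.038 (Pc), and for Cg25C the authors' deposited table gives 0.375 and 0.075. The integrin alpha chain gene scb had 201904 with Ph and 377274 with Pc, and the laminin gene LanB1 had 742940 and 1148968. Exceptions were trol, the gene for perlecan (764986 and 696732), and rhea, the gene for talin (1182454 and 1162351). Hemocytes secrete collagen IV, and Hml, which marks them, had 235.7 with Ph and 2433 with Pc. The hemocyte markers srp (60230.3 and 74647), crq (107753 and 117231), Pxn (17185 and 18647) and eater (2756 and 3329) lay within 1.5-fold of each other between the groups. Of 11 listed hemocyte genes, which include both collagen genes, 2 were 2-fold higher with Ph and 3 with Pc. The shares of all genes were 5.95% and 5.38%. Higher with Ph were lz (1303 with Ph, 76.7 with Pc) and peb (28921 and 3775). Higher with Pc were Hml and both collagen genes. Only the Ph mean of lz and, of the labelled groups, only the Pc mean of Hml reached 798.3. Among the 9 with at least 798.3 in both labelled groups, 1 was 2-fold higher with Ph and 2 with Pc. The part of hemocytes in the collagen means was not tested.

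Titin-related and cytoskeletal genes leaned to Ph. The titin gene sls had 113251 with Ph and 25288 with Pc, and its neighbour in the same region, zormin, had 161323 and 39556. Among actins, Act57B had 5642 with Ph and 1643 with Pc, but Act79B had 1287 and 7600.2. Of 16 listed muscle and actin cytoskeleton genes 4 were 2-fold higher with Ph, against 5.95% of all genes, and 1 with Pc, against 5.38%. The median log2 ratio was 0.62. Among the 15 with at least 798.3 in both labelled groups, 3 were 2-fold higher with Ph and 1 with Pc, with a median of 0.51. Guidance and adhesion genes included the adhesion protein genes Ama (216074 with Ph, 29381 with Pc) and Fas3 (46252 and 12010), and the repellent gene sli (525330.2 and 141112). NetA, a netrin gene, had 150916 with Ph and 368504 with Pc. In that list 5 of 22 genes were 2-fold higher with Ph and 2 with Pc, beside the same shares of all genes.

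Of 13 listed genes of glycolysis and arginine kinase 3 were 2-fold higher with Ph, against 5.95% of all genes, and none with Pc. The median log2 ratio was 0.34, and 4 of the 13 had the higher mean with Pc. Argk, for arginine kinase, which buffers ATP, had a mean of 1739577 with Ph, 223020.3 with Pc and 154272 in Mock, a ratio of 7.80. Its q-values against Mock in the authors' deposited table were 0.086 (Ph) and 0.43 (Pc). The glycolytic genes Gapdh2 (560318 with Ph, 227856 with Pc) and Pgk (233475 and 111122) were also 2-fold higher with Ph, while Pfk (99156 and 133522) was not. Among 21 heat shock and chaperone genes 1 was 2-fold higher with Ph, against 5.95% of all genes. It was the small heat shock gene region member Hsp67Ba (11912 and 5111).

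Among the 15 highest ratios at or above the median level Mock lay below both groups in 14, and among the 15 lowest Mock lay above the Ph mean in 13. The other named ratios at or above the median level were spread over many functions. Higher with Ph were ome, a dipeptidyl peptidase gene (44013 with Ph, 4461 with Pc), ltl, a gene for an extracellular leucine-rich repeat protein (39008 and 4183), and gukh, whose protein binds Discs large (66554 and 15378). For gukh Mock lay between the groups at 27130.3. Higher with Pc were GlcAT-P, a glucuronyltransferase gene (9580.5 with Ph, 43163 with Pc), the spliceosome gene SmD2 (15614 and 70075) and the chitinase-like growth factor gene Idgf3 (10183 and 44543). The kinase-related gene Strn-Mlck (16823 and 56075) and the myoblast fusion gene rols (32638 and 104673) were higher with Pc too.

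**Figure D4:**
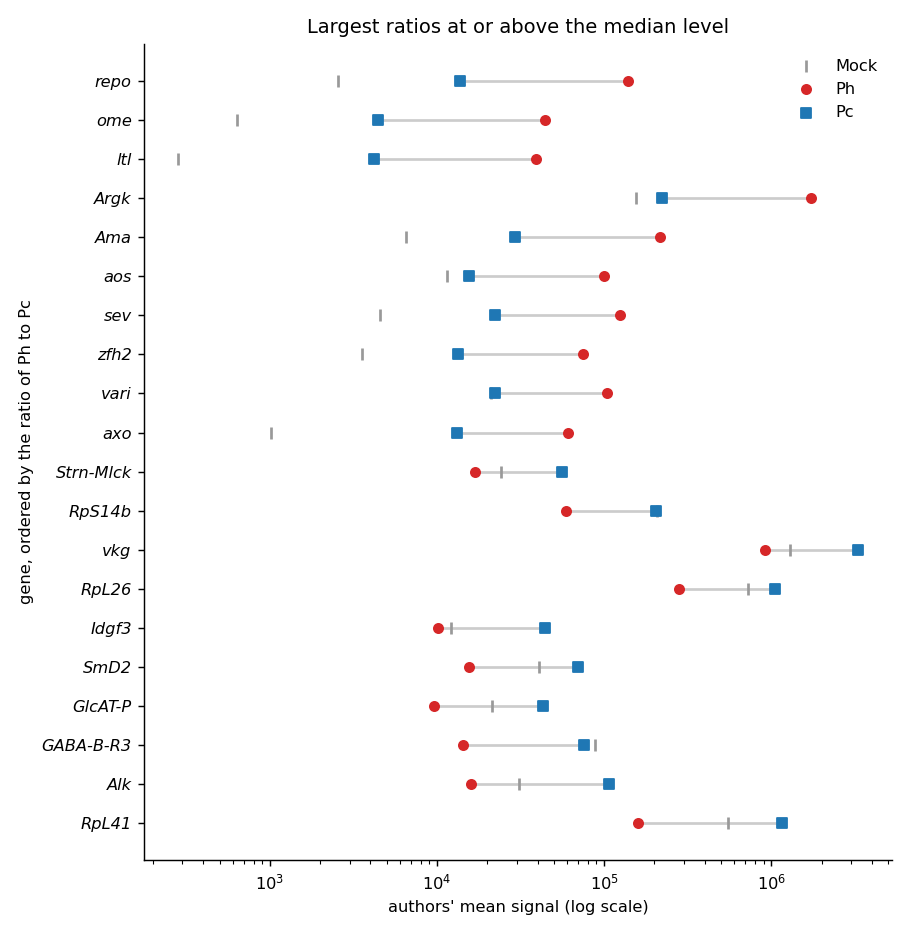
Authors' mean signal (log scale) in the groups labelled Ph and Pc and in Mock for the 10 highest and 10 lowest ratios of Ph to Pc among genes at or above the median level. Mock lies left of both groups for all 10 genes higher with Ph, and right of the Ph mean for all 10 higher with Pc.

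Genes for cytosolic ribosomal proteins lay on both sides, more often with the higher mean in the group labelled Pc. Of 85 listed, 53 had the higher mean with Pc, 16 of them by at least 2-fold, against 5.38% of all genes. The other 32 had the higher mean with Ph, 3 of them by at least 2-fold, against 5.95% of all genes. The median log2 ratio was -0.32. RpL41 had a mean of 158416 with Ph, 1159491 with Pc and 554766 in Mock. RpL26 had 281885 with Ph and 1045998 with Pc. Against Mock the list's median log2 ratios were -0.78 (Ph) and -0.48 (Pc). RpS14b (59108 with Ph, 204359 with Pc) has a near-identical neighbouring copy, so its reads may have been divided. Of 72 mitochondrial ribosomal protein genes 10 were 2-fold higher with Pc, against 5.38% of all genes, and 2 with Ph, against 5.95%, with a median of -0.08. Translation factors and tRNA synthetases did not share this direction: 2 of 50 were 2-fold higher with Ph, none with Pc, beside the same shares of all genes. Their median log2 ratio was 0.17.

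Replication-dependent histone genes differed by histone. Of the 96 listed copies 37 were 2-fold higher with Pc, against 5.38% of all genes, and 1 with Ph, against 5.95%. The median log2 ratio was -0.87. All 20 copies of histone H2A were 2-fold higher with Pc, with log2 ratios from -2.29 to -1.61 and a median of -1.92. Of 23 copies of H1, the linker histone, 15 were, with a median of -1.16. None of the 22 copies of H4 was, although their log2 ratios all lay below 0, the highest at -0.52. None of 18 copies of H3 was either, and their median was -0.10. Among 13 copies of H2B 2 were 2-fold higher with Pc and 1 with Ph, with a median of -0.37.

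Against Mock, the H2A copies had a median log2 ratio of -1.85 with Ph and 0.10 with Pc. Those of H3 had -0.75 and -0.81, but their median level of 1412 was far below that of H2A, 23972. The copies of each histone are nearly identical and share reads, so they are not independent measurements, and no source used here says how their reads were assigned. His2Av, the gene for the variant H2A outside the repeat, was named after its values were seen and had 193947 with Ph and 246392 with Pc.

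Short genes were more often 2-fold higher with Pc than with Ph. In the quartile of genes with the shortest exonic length (64 to 1309 bp in the annotation used here), 11.3% were 2-fold higher with Pc and 5.57% with Ph. In the other quartiles the share higher with Pc was 3.06% to 3.58%, and that higher with Ph 5.29% to 6.64%. Without ribosomal protein genes and histone copies, 9.4% of the shortest quartile were 2-fold higher with Pc and 5.88% with Ph. The median log2 ratio of Ph to Pc was -0.10 in the shortest quartile and 0.08, 0.07 and 0.01 in the others. Against Mock the shortest quartile was lower in both labelled groups, with medians of -0.32 (Ph) and -0.19 (Pc). The longest had 0.21 and 0.24. Among 892 genes under 1000 bp that encode neither ribosomal proteins nor these histones, the median was -0.19, beside -0.47 for the 50 cytosolic ribosomal protein genes of that length and -0.77 for the 73 histone copies. Across 7471 genes, which are not independent replicates, Spearman's rho of length with the log2 ratio was 0.09. It was 0.05 over the 7291 genes without ribosomal protein genes and histone copies, and -0.006 over the 3723 genes at or above the median level. Of the 892 genes under 1000 bp, however, 211 were at or above the median level. Among these, 23 (10.9%) were 2-fold higher with Pc and 7 with Ph, with a median log2 ratio of -0.20. The ribosomal protein genes and histone copies were mostly short, and the part of length in their ratios was not tested. H2A copies had a median length of 493 bp and H3 copies of 529 bp.

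**Figure D5:**
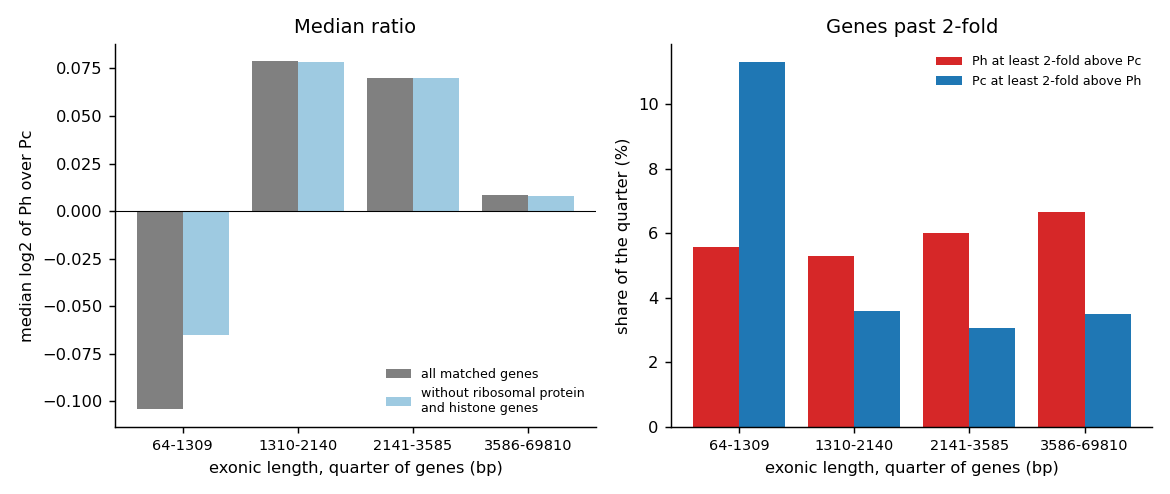
Left, the median log2 ratio of Ph to Pc in quartiles of genes by exonic length, for all matched genes and without ribosomal protein and histone genes; right, the share of each quartile at least 2-fold higher in either labelled group. The shortest quartile (64 to 1309 bp) has a negative median and the highest share with Pc above Ph, 11.3% with ribosomal protein and histone genes included.

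Of 17 listed immune genes 3 were 2-fold higher with Pc, against 5.38% of all genes, and none with Ph, and the median log2 ratio was -0.23. The peptidoglycan recognition gene PGRP-LB had a mean of 112.6 with Ph, 1468 with Pc and 22.6 in Mock. The receptor gene PGRP-LC had 865.6 with Ph, 4733 with Pc and 2893 in Mock. Among the 14 immune genes with at least 798.3 in both labelled groups 1 was 2-fold higher with Pc.

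Several gene groups had few or no genes past 2-fold, where 5.95% of all genes were higher with Ph and 5.38% with Pc. Whether their counts differ from these shares was not tested. None of 10 cohesin and loading factor genes, 11 RNA interference genes or 4 listed lipid phosphatase and lipophorin receptor genes was 2-fold apart. Of the latter, wun2 had 9206 with Ph and 14514 with Pc, both far below the Mock mean of 59125. Of 8 dosage compensation genes the noncoding RNA gene roX1 was 2-fold higher with Ph, at 800.4 with Ph and 242.3 with Pc, while roX2 had 84937 and 48653. Of 37 replication and mitosis genes 1 was 2-fold higher with Ph, the phosphatase gene stg (80834 and 33468). Of 30 proteasome genes 1 was, Prosalpha5 (125073 and 58617). Of 41 Mediator, TFIID and RNA polymerase II genes 2 were 2-fold higher with Pc, MED10 (2615 with Ph, 10667 with Pc) and MED11 (3588 and 12797). By chromosome arm the median log2 ratio ran from -0.01 (chromosome 4) to 0.04 (X).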

How the data were processed

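Per the labels' protocols, total RNA was depleted of ribosomal RNA before barcoded Ion libraries were made. The authors deposited 1 table of group means: the signal (unit not named), scaled to a near-common total (column sums within 0.021%), the fold ratio of each treated group to Mock, and a p-value and q-value of each, per the file headers. bedtools is named, with no version, in the submitters' processing notes; no source used here gives the aligner, build, counting, strand, normalization or test. The table holds 0 columns per library, so nothing was tested here, no interval is given, and no replicate could be left out. Another 3 columns of means (nt.gene) correspond to none of the labelled samples and stayed unused.

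Ratios are quotients of the authors' means. log2 ratios have a pseudocount of 1. The lowest value of a column (1.48 in 4 genes with Ph, 0.65 in 12 with Pc) is read as no signal. The deposited means were analysed with Python 3.11.15 and pandas 2.3.3, and the counting was tested on simulated data. Gene names were matched to the Ensembl BDGP6 annotation, directly or through RefSeq synonyms, for 7471 genes (98.0%); it gave exonic lengths and arms, since the files name no build.

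The gene lists (36, of which 35 had genes in the table) and the members were chosen with earlier results of these data known. Listed genes of the table were counted for every list. lat was left out of the JAK-STAT list after the data were seen, since this symbol belongs to an origin recognition gene. The ribosomal list includes 3 ribosomal-protein-like genes. Named genes are the targeted, Hox and PRC1 genes, the 15 highest and 15 lowest ratios at or above the median mean of Ph and Pc (without CG or CR numbers, histone copies and small RNAs), and per list the 4 largest ratios above that level and 2 below it; some are not reported here. Outside this rule, Act57B, Dll, Dr, EcR, His2Av, Pfk, Poxm, Wnt5, cad, lbe, rhea, so, tio, trol and tup, and the markers elav, srp, crq and eater, were named after their values were seen. Alternatives changed the pseudocount, scaling, level filter and fold.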

Additional observations from a re-analysis of the deposited data

How the results depend on the processing

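At 1.5-fold, 1026 genes were higher with Ph and 921 with Pc, and at 3-fold 243 and 180. Restricted to genes at or above the median level, the counts were 89 and 111; restricted to genes with at least 798.3 in both groups, they were 247 and 300, so the excess of genes higher with Ph turned into an excess higher with Pc under both limits. Under the latter the median log2 ratio of homeobox regulators went from 1.84 to 0.24, and that of segmentation genes from 1.53 to -0.0305, a reversed sign; weakly detected members were left out by construction. A pseudocount of 100, no pseudocount, a median ratio of 0, a total without the targeted and most abundant 1% of genes, and leaving out ribosomal protein genes and histone copies each kept both counts within 1.5-fold. A pseudocount of 100 moved 13 of 202 named genes by over 1.5-fold, and none of these changed direction. Leaving out a replicate could not be run. No paired analysis was possible because the table holds group means without values per library. The depth of the libraries, and so the error of each ratio, is unknown.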

Other observations

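In 53 genes the labelled groups lay on opposite sides of Mock, each at least 2-fold from it: 35 were above Mock with Ph and below it with Pc, and 18 the reverse. Of these 2 were at or above the median level, and the genes below were chosen after their values were seen. Both engrailed-family genes differed: en had a mean of 3654 with Ph, 564.6 with Pc and 1448 in Mock, and its paralog inv had 15984, 4584 and 5271, so inv was within 2-fold of Mock with Pc and is not among the 53. The phagocytic receptor family gene nimA had 13344 with Ph, 623.2 with Pc and 4357 in Mock. The sex determination gene fru had 2522, 121.9 and 333.0. In the reverse direction, the peroxiredoxin gene Prx2540-2 had 1722 with Ph, 22763 with Pc and 10995 in Mock. A similar gene, Prx2540-1, had 753.1, 6488 and 4353, and how reads were split between these copies is uncertain.

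Symbols made of CG or CR and digits were left out of the named genes. Of 3529 such genes, 220 (6.23%) were 2-fold higher with Ph and 211 (5.98%) with Pc, near the shares of all genes, 5.95% and 5.38%. Chosen after its values were seen, CG1428 was listed at 7.76 in Mock and at the lowest value of the column with Ph, 1.48, but at 5698 with Pc and 6608 with Sce. CG13654 had 17.4 with Ph, 1780.4 with Pc and 74.4 in Mock.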
